A study of Caenorhabditis elegans with 9 samples.

Results

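The proteasome genes of the nematode Caenorhabditis elegans were the 33 genes whose WormBase symbol is pas-, pbs-, rpn- or rpt- followed by a number, of 46926 genes in the count files. All 33 matched a WormBase gene identifier, and all 33 had enough counts to be tested. The proteasome is the protease that degrades proteins tagged with ubiquitin. Its core particle is a barrel of alpha rings (pas genes), which gate the entry, and beta rings (pbs genes), which hold the active sites. A regulatory particle caps the barrel: its base carries a ring of ATPases (rpt genes) that unfold the substrate and thread it into the core, and its lid (rpn genes) removes the ubiquitin. In C. elegans, as in yeast and mammals, subunit genes can be switched on together when proteasome function falls, in the worm through the transcription factor SKN-1A.

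Messenger RNA was measured in 9 libraries from whole young adults, 3 each from the genotypes labelled WT, UNC5 and PATR1. The study's design text describes wild type and an unc-5(Cys348*) stop allele; unc-5 encodes a receptor for the axon guidance cue netrin. Which of the mutant labels carries that allele is not given, nor is the meaning of PATR1, so each group is called by its label. Nothing in the labels says whether the libraries of a group came from separate cultures, so p-values refer to library-to-library spread, which may be technical.

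Library depth was 38673206 to 60642199 reads counted to genes, and proteasome genes had 533 to 24374 reads per gene and library. Levels are CPM, counts scaled to the size of the library with TMM factors, and log2 fold changes (± SE) come from edgeR's quasi-likelihood test with Benjamini-Hochberg adjustment over 17512 genes; "rose" and "fell" mean an adjusted p below 0.05. The level of unc-5 (WBGene00006745, WBcel235 chromosome IV, 5495664 to 5528338, minus strand) was 17.8 ± 0.97 CPM in WT, 10.1 ± 0.22 in UNC5 and 13.5 ± 0.63 in PATR1 (SD, n = 3), a fall of 0.82 ± 0.058 (adjusted p = 2.9e-14) and of 0.40 ± 0.054 (adjusted p = 4.5e-08) on the log2 scale. It was thus lower in both mutant groups, in every library. The PATR1 libraries had more unmapped reads (2.86% to 6.02%) than WT (0.621% to 0.629%) and UNC5 (0.667% to 0.937%), and the UNC5 libraries more reads in no gene (1.11% to 1.32%) than WT (0.582% to 0.647%) and PATR1 (0.678% to 0.748%). Of all genes tested 76.8% to 83.6% passed the test in each comparison, and the median log2 fold change over all genes tested was 0.16 for UNC5 vs WT, -0.11 for PATR1 vs WT and -0.04 for PATR1 vs UNC5. With relative log expression (RLE) factors these medians were 0.06, -0.16 and 0.01, and with library sizes alone 0.11, -0.23 and -0.11. The shift is larger than many changes of single proteasome genes in UNC5, so changes of the set and of several members are also given relative to it. Both mutant groups were compared with the same WT libraries, and their values are set side by side without a measure of overlap.

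The 33 genes are protein-coding and lie on 5 of the chromosomes in the WBcel235 annotation: 10 on chromosome I (30.3%, against 14.4% of all coding genes), 8 on III (24.2% against 13.2%), 7 on II (21.2% against 17.2%), 5 on V (15.2% against 25%), 3 on IV (9.09% against 16.4%) and 0 on X (0.0% against 13.7%). For 8 of the 33 (24.2%, against 18.1% of all coding genes) another coding gene on the same strand ends within 500 bases upstream, the spacing often seen in worm operons. Of 7 of those upstream neighbours that were tested, 4 rose and 3 fell in PATR1 relative to WT, where 38.7% of all genes tested rose and 44.9% fell. So few genes cannot show whether neighbours follow the proteasome genes. These shares are descriptions without a test.

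Nearly the whole set was higher in PATR1 than in WT. Of 33 proteasome genes 32 rose and 1 fell, where 38.7% of all genes tested rose and 44.9% fell. The median change was 0.41 on the log2 scale, against -0.11 over all genes, and the 32 that rose lay between 0.25 and 0.58. The interquartile range over the 33 was 0.083, against 1.10 over all genes. The lists of CCT chaperonin and cytosolic ribosomal protein genes described below had similar ranges, 0.084 and 0.082. For the 32 genes every PATR1 library was above every WT library, a separation found in 38.8% of all genes tested. No proteasome gene passed a 2-fold change, where 16.5% of all genes tested did. The counts of 32 and 1 were the same under every alternative fit tried.

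**Figure D1:**
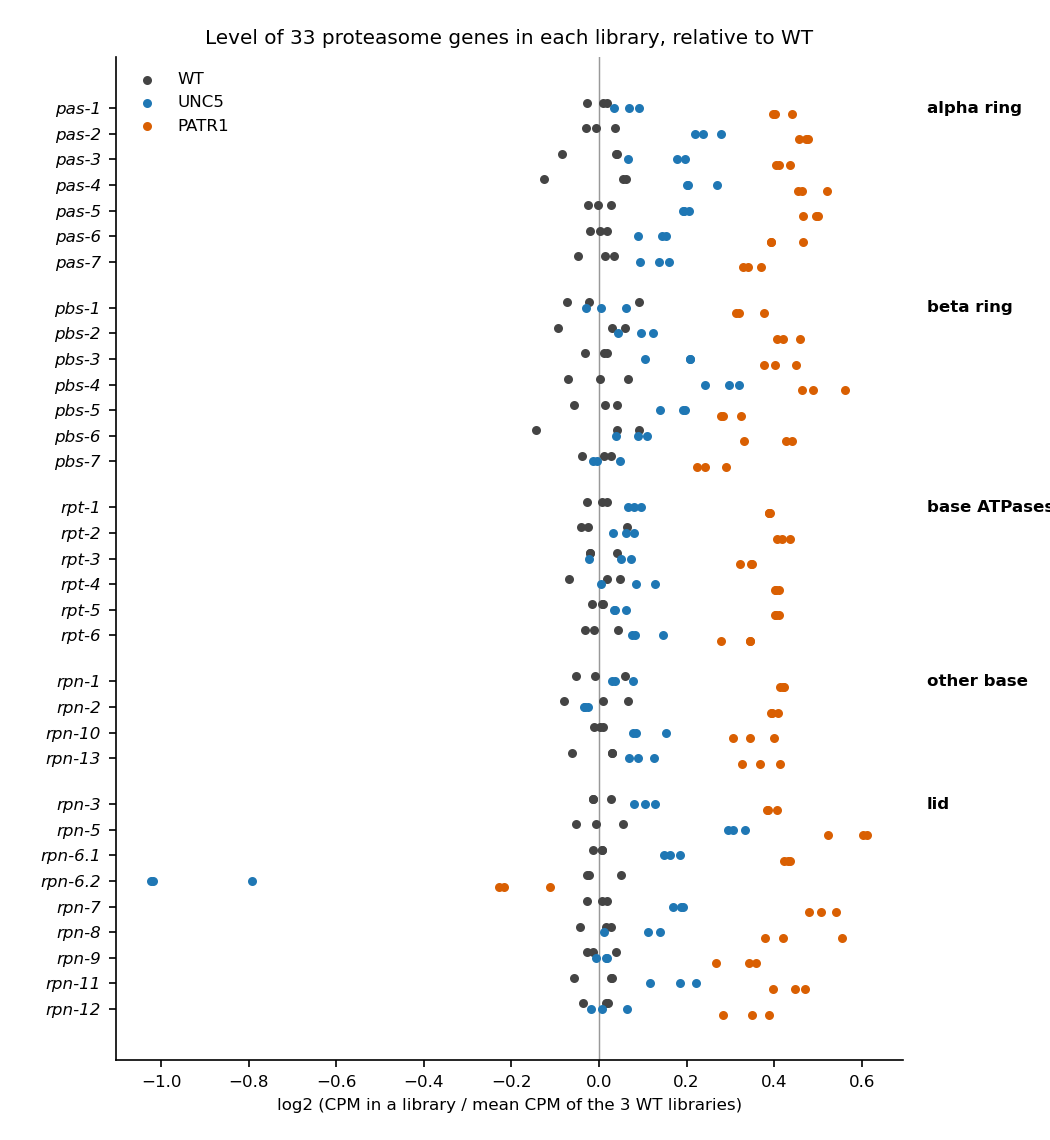
Level of each of the 33 proteasome genes in each of the 9 libraries (points), as log2 of its CPM over the mean CPM of the 3 WT libraries, grouped by subcomplex. The PATR1 points lie to the right of the WT points for every gene except rpn-6.2, and the UNC5 points lie close to or among the WT points for most genes, in positions that shift with the scaling of the libraries.

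Summed over the 33 genes, the level was 5404, 5555 and 5443 CPM in the WT libraries, 5806, 5910 and 5856 in UNC5, and 7196, 7232 and 7275 in PATR1. The PATR1 sum was 32.3% above WT and 23.5% above UNC5, with no overlap of libraries. As a share of all counted reads, without scaling factors, the set made up 0.569% in WT, 0.588% in UNC5 and 0.692% in PATR1. The UNC5 sum was 7.1% above WT with TMM factors, but with RLE factors the means were 5668 CPM in WT and 5656 CPM in UNC5.

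In whole animals, less RNA of a kind per cell and fewer cells of that kind cannot be told apart, and cell markers moved with the same groups. All 13 germline and oocyte markers rose in PATR1 relative to WT (median 0.67), and their summed level was 5938 to 6176 CPM in PATR1 against 3561 to 3702 in WT and 3962 to 4006 in UNC5. In PATR1 relative to WT, 6 of 6 body wall muscle markers fell, as did 7 of 8 neuronal, 4 of 4 pharyngeal muscle, 5 of 6 epidermal and 5 of 7 intestinal markers, with 1 neuronal and 2 intestinal markers rising. Over all genes tested 38.7% rose and 44.9% fell in this comparison. The summed level of the muscle markers was 5887 to 6176 CPM in PATR1 against 8334 to 8829 in WT, and that of the neuronal markers 456 to 457 against 528 to 556. The summed level of the intestinal markers was higher, at 40270 to 43170 CPM in PATR1 against 31410 to 32290 in WT and 19600 to 20390 in UNC5, although most of these markers fell; the yolk protein genes vit-2 and vit-5 were the markers that rose. No marker was at 0 in any library. The part of these shifts in the proteasome result was not tested.

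The alpha ring rose throughout in PATR1. All 7 pas genes were higher than in WT, by 0.35 (pas-7) to 0.49 (pas-5), with a median of 0.42. In the pas-2 gene, the WT libraries had a mean of 106 ± 2.47 CPM (SD, n = 3) and a highest value of 109, the UNC5 libraries were at 125, 124 and 129, and the PATR1 libraries at 148, 147 and 146. The groups formed 3 separate steps in this gene, with WT lowest and PATR1 highest, as they did in all 7 pas genes. Over the whole set 20 of 33 genes had every UNC5 library above every WT library, and that step depends on the scaling. The PATR1 rise of pas-2 was 0.47 ± 0.030 over WT (adjusted p = 2.4e-15) and 0.22 ± 0.031 over UNC5 (adjusted p = 8.4e-08).

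The beta ring rose as well, with a wider spread than the alpha ring. All 7 pbs genes were higher in PATR1 than in WT (median 0.40), from pbs-7 at 0.25 to pbs-4 at 0.51. The catalytic subunits are encoded by pbs-1, pbs-2 and pbs-5, whose counterparts in yeast and mammals carry the caspase-like, trypsin-like and chymotrypsin-like activities. Their rises over WT were 0.34 ± 0.036 (pbs-1), 0.43 ± 0.035 (pbs-2) and 0.30 ± 0.032 (pbs-5), with adjusted p of 7.3e-10, 6.1e-13 and 4.1e-10.

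The chymotrypsin-like subunit gene pbs-5 stood at 145, 152.5 and 155.5 CPM in WT, 173, 173 and 166.5 in UNC5, and 183, 184 and 189 in PATR1. Its step from UNC5 to PATR1 was 0.12 ± 0.032 (adjusted p = 0.0011), below those of the other 32 genes, and with library sizes alone it was 0.05 and did not pass (adjusted p = 0.16). The structural subunit gene pbs-7 was at 142, 149 and 147.5 CPM in WT, 145, 151 and 146 in UNC5, and 173, 179 and 171 in PATR1. WT and UNC5 overlapped in this gene, and only PATR1 stood apart, by 0.25 ± 0.031 over WT (adjusted p = 8.2e-09). A coding gene on the same strand, K07A12.5, overlaps pbs-7, and reads that fall in both are not counted to either.

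The gene pbs-4, for a structural beta subunit, had 97.0, 92.1 and 101 CPM in WT, 115, 121 and 119 in UNC5, and 136, 134 and 143 in PATR1. It rose by 0.51 ± 0.035 in PATR1 relative to WT (adjusted p = 1.2e-14), and its groups also formed 3 steps without overlap.

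In the base of the regulatory particle, the 6 ATPase genes rose in PATR1 by similar amounts. They lay between 0.32 (rpt-6) and 0.42 (rpt-2) over WT, with a median of 0.40. The PATR1 libraries were close together in several of these genes: rpt-1 was at 326, 326 and 326 CPM in PATR1 against 252, 250.3 and 244.5 in WT, and rpt-5 at 254, 253 and 253 against 189, 192 and 192.5.

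The other base genes encode scaffolds and ubiquitin receptors, and all 4 rose in PATR1 (median 0.38). The scaffold gene rpn-2 had 331, 367 and 352.5 CPM in WT, 343, 342 and 344 in UNC5, and 465, 459.7 and 460.4 in PATR1. UNC5 lay inside the WT range and PATR1 above both, by 0.40 ± 0.034 over WT (adjusted p = 1.7e-12) and by 0.43 ± 0.034 over UNC5 (adjusted p = 5.3e-13). The gene rpn-1, a scaffold that docks ubiquitin shuttles in yeast, had 301, 325 and 310.3 CPM in WT, 319, 329.5 and 320.1 in UNC5, and 415.5, 418 and 418 in PATR1. WT and UNC5 overlapped in rpn-1 too, and PATR1 was higher than UNC5 by 0.37 ± 0.033 (adjusted p = 6.8e-12). The ubiquitin receptor genes rpn-10 and rpn-13 rose by 0.35 ± 0.032 and 0.37 ± 0.033 over WT in PATR1 (adjusted p = 1.1e-11 and 4.6e-12).

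In the lid, 8 of 9 genes rose in PATR1 relative to WT and 1, rpn-6.2, fell. The rises ran from 0.32 (rpn-9) to 0.58 (rpn-5), and the deubiquitinase gene rpn-11 rose by 0.44 ± 0.033 (adjusted p = 1.3e-13). The scaffold subunit gene rpn-5 had the highest rise of the set: its WT libraries were at 165, 177 and 170.0 CPM, the UNC5 libraries at 209, 211 and 215, and the PATR1 libraries at 245, 261 and 259. The groups did not overlap, and the change over WT was 0.58 ± 0.033 in PATR1 (adjusted p = 7.4e-17), a level 49.5% above WT.

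Relative to UNC5, all 33 genes rose in PATR1, where 37.8% of all genes tested rose and 40.9% fell. The median was 0.29 against -0.04 over all genes, and every PATR1 library was above every UNC5 library for all 33, against 38.3% of genes tested. Apart from rpn-6.2 (0.76) the changes lay between 0.12 (pbs-5) and 0.43 (rpn-2). The medians of the subcomplexes were 0.27 for the alpha ring, 0.24 for the beta ring, 0.32 for the ATPases, 0.32 for the other base genes and 0.31 for the lid.

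In UNC5 relative to WT the set moved little, and the sign of the small changes depended on the scaling. With TMM factors 21 of 33 genes rose, 1 fell and 11 did not pass, where 49.8% of all genes tested rose and 27% fell, and 20 of 33 had every UNC5 library above every WT library, against 50.4% of genes tested. The median of 0.09 was below that of all genes (0.16), and 10 of the 33 were above the all-gene median. With RLE factors 7 rose and 6 fell (median -0.01), where 40.4% of all genes rose and 32.7% fell. With library sizes alone 13 rose and 2 fell (median 0.04), where 45.2% of all genes rose and 29.6% fell. Relative to all genes the position of the set was steadier, with its median 0.04 to 0.09 below the all-gene median under every alternative fit. Leaving out the low-count filter gave 2 that rose and 16 that fell, where 23% of all genes rose and 25.2% fell. Fitting only the WT and UNC5 libraries gave 3 and 12, where 35.6% of all genes rose and 35.9% fell.

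The same dependence held for the subcomplexes in UNC5. Their counts stand beside 49.8% of all genes tested that rose and 27% that fell with TMM factors, and 40.4% and 32.7% with RLE factors. The alpha ring genes had the highest median (0.15, 6 of 7 rose with TMM factors, 3 with RLE factors), followed by the lid (0.10, 6 of 9 rose and 1 fell; with RLE factors 2 and 3), the beta ring (0.09, 4 of 7 rose; with RLE factors 2 rose and 2 fell), and the ATPases and the other base genes (0.07 each, 3 of 6 and 2 of 4 rose; with RLE factors none of the 6 was called and 1 of the 4 fell). Genes furthest above the median member were rpn-5 (0.31 ± 0.033, adjusted p = 4.7e-10), pbs-4 (0.29 ± 0.035, adjusted p = 1.1e-08) and pas-2 (0.25 ± 0.031, adjusted p = 1.5e-08). Relative to the all-gene median their changes were smaller, at 0.15, 0.13 and 0.09. Of these genes, rpn-5 and pbs-4 kept their rise under every alternative fit, and pas-2 did not pass without the low-count filter (0.08, adjusted p = 0.056).

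The balance between subcomplexes does not depend on the scaling of a library, since both parts come from the same library. The mean length-scaled level of the 7 alpha ring genes over that of the 10 base genes was 1.324, 1.315 and 1.313 in WT, 1.406, 1.409 and 1.420 in UNC5, and 1.346, 1.368 and 1.373 in PATR1. Both mutant groups lay above WT without overlap, UNC5 by 7.2% and PATR1 by 3.4%, and UNC5 lay above PATR1. The beta ring did not show the same order: its share of the summed length-scaled level was 25.22% to 26.18% in WT, 25.49% to 25.86% in UNC5 and 24.92% to 25.47% in PATR1. The WT range overlapped those of both mutant groups. In PATR1 the shares of the ATPases (18.0% to 18.3%) and of the other base genes (8.34% to 8.50%) also overlapped those in WT (18.1% to 18.7% and 8.29% to 8.65%). In UNC5 both shares lay below WT without overlap, at 17.71% to 17.83% and 8.10% to 8.21%. The alpha ring share was 24.45% to 25.03% in WT, 25.43% to 25.78% in UNC5 and 25.27% to 25.32% in PATR1. The ratio was not among the measures planned beforehand. It sets the subcomplex with the highest UNC5 median against those with the lowest, so its separation in UNC5 is not separate support for those medians. Among all single genes tested, every UNC5 library was above every WT library in 50.4% and below in 27.5%. For PATR1 and WT these were 38.8% and 45.2%. No test was made of these ratios and shares.

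**Figure D2:**
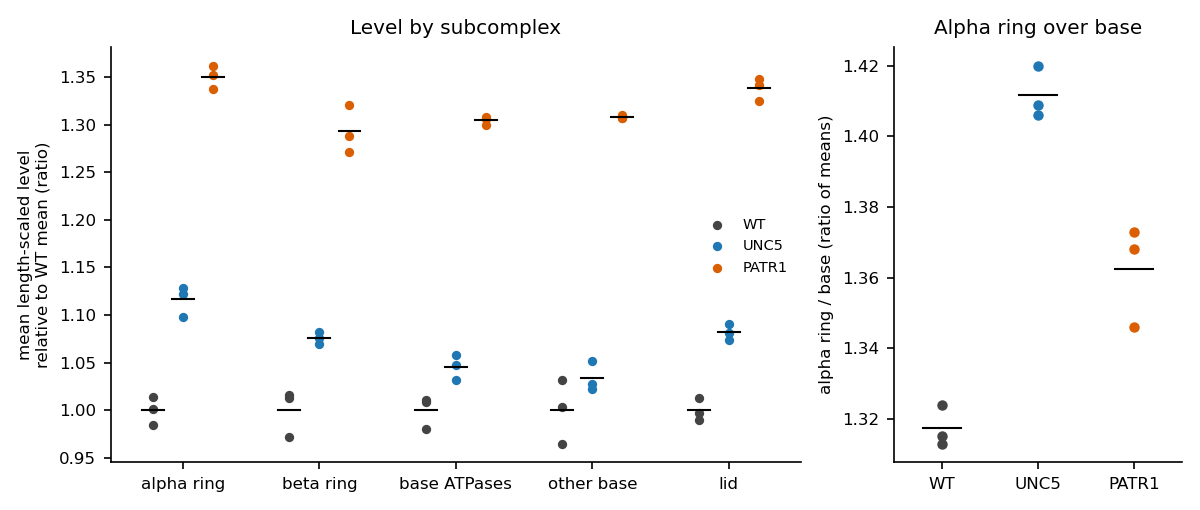
Left, mean length-scaled level of each subcomplex in each library relative to its WT mean, a linear ratio with an axis that does not start at 0; bars are group means of 3 libraries. Right, the ratio of the mean length-scaled level of the alpha ring to that of the base: WT lies at 1.313 to 1.324, UNC5 at 1.406 to 1.420 and PATR1 at 1.346 to 1.373. The height of the UNC5 points in the left panel depends on the scaling: with RLE factors the summed level of the set was 5656 CPM in UNC5 and 5668 CPM in WT.

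The lid subunit Rpn6, which in yeast and mammals braces the lid against the core, has a pair of genes in the worm, and they did not move together. For rpn-6.1 (WBGene00004462, chromosome III, 6959110 to 6962001, minus strand) the WT libraries were at 155, 153 and 155 CPM, UNC5 at 171, 176 and 173, and PATR1 at 209, 208 and 207. It followed the rest of the set, with a rise of 0.43 ± 0.029 in PATR1 relative to WT (adjusted p = 7.5e-15). Its UNC5 change of 0.17 ± 0.029 (adjusted p = 7.1e-06) was 0.06 and did not pass with RLE factors (adjusted p = 0.056). Relative to the all-gene median the main-fit UNC5 change of rpn-6.1 was 0.01.

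For rpn-6.2 (WBGene00010309, chromosome III, 8999817 to 9001999, minus strand) the WT libraries were at 27.1, 28.5 and 27.0 CPM, UNC5 at 13.6, 15.9 and 13.5, and PATR1 at 25.5, 23.5 and 23.7. UNC5 was far below the other groups, and PATR1 just below WT without overlap, a separation that 45.2% of all genes tested showed in PATR1 and 27.5% in UNC5. The fall was 0.94 ± 0.055 on the log2 scale in UNC5 (adjusted p = 1.8e-16) and 0.18 ± 0.050 in PATR1 (adjusted p = 0.0013), or 1.10 and 0.08 below the all-gene medians. PATR1 was above UNC5 by 0.76 ± 0.057 (adjusted p = 1.6e-13). These calls held under every alternative fit, with the UNC5 change between -1.11 and -0.90. The share of rpn-6.2 in the length-scaled level of the pair, which needs no scaling factor, was 15.5% to 16.4% in WT, 7.65% to 8.72% in UNC5 and 10.7% to 11.4% in PATR1. In PATR1 relative to WT the mean CPM of rpn-6.1 changed by 34.65% and that of rpn-6.2 by -11.97%. The lower share in PATR1 thus also reflects the rise of rpn-6.1. In UNC5 these changes were 12.15% and -47.89%. Reads that align to both genes are not counted to either, and the similarity of the pair was not measured here.

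Sperm markers had the same order of groups as rpn-6.2. All 10 fell in UNC5 relative to WT (median -2.32), 9 of 10 fell in PATR1 (median -0.58), and all 10 rose in PATR1 relative to UNC5 (median 1.62). Over all genes tested 27% fell in UNC5 and 44.9% in PATR1 relative to WT, and 37.8% rose in PATR1 relative to UNC5. Their summed level was 554 to 587 CPM in WT, 117 to 123 in UNC5 and 404 in each PATR1 library. The part of this shift in the change of rpn-6.2 was not tested.

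**Figure D3:**
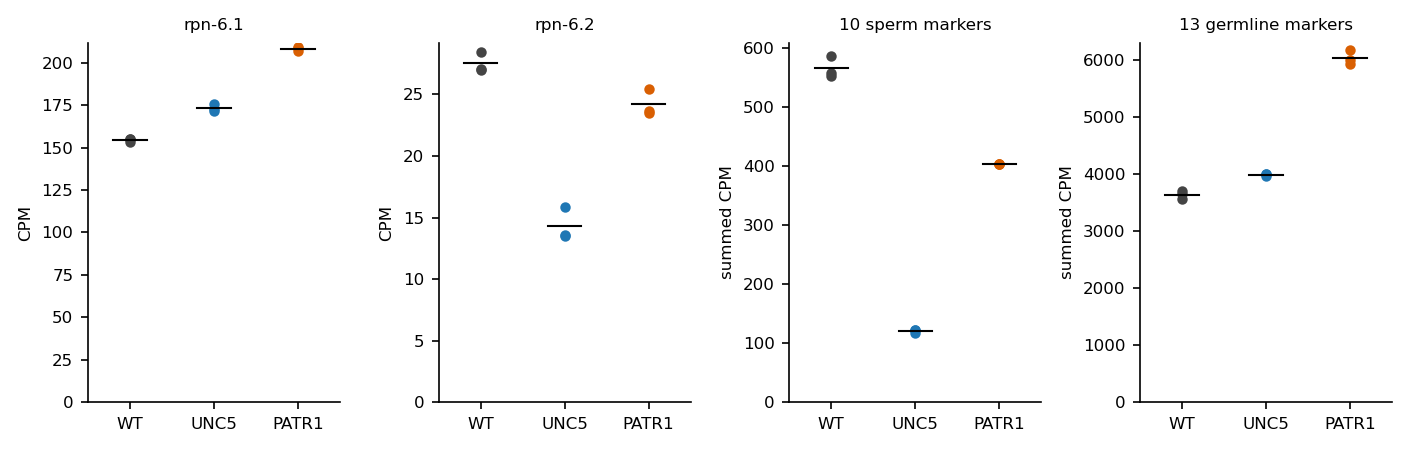
CPM of rpn-6.1 and rpn-6.2, and summed CPM of 10 sperm markers and of 13 germline and oocyte markers, in each library (points) with group means (bars). rpn-6.2 and the sperm markers are lowest in UNC5, at 13.5 to 15.9 and 117 to 123 CPM, while rpn-6.1 and the germline markers are highest in PATR1, at 207 to 209 and 5938 to 6176 CPM.

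Levels between genes were compared per kilobase of merged exon. The order of the 33 genes was nearly the same in all groups. The highest were pbs-1 (226.5 ± 13.6 CPM per kilobase in WT, 228.5 ± 7.17 in UNC5 and 286 ± 7.16 in PATR1; SD, n = 3) and pas-3 (203 ± 10.1, 225 ± 11 and 271 ± 2.95), which held ranks 1 and 2 in each group. The lowest were rpn-13, rpn-10 and rpn-6.2, at ranks 31, 32 and 33 in each. The ubiquitin receptor gene rpn-10 was at 76.2 ± 0.55, 81.9 ± 2.39 and 97.1 ± 3.15 CPM per kilobase, and rpn-6.2 at 17.7 ± 0.53, 9.20 ± 0.86 and 15.6 ± 0.71.

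Without rpn-6.2 the highest level was 2.71 to 3.20 times the lowest across the 9 libraries. Neighbours in the order mostly did not differ beyond their spread: the libraries overlapped in 24 of 32 adjacent pairs in WT, 22 in UNC5 and 18 in PATR1. The largest moves were 7 places, for rpt-5 (rank 15 in WT, 22 in UNC5 and 18 in PATR1) and pbs-4 (rank 21, 14 and 16). By subcomplex, the mean length-scaled level in WT was 153 ± 2.31 for the alpha ring, 159 ± 3.85 for the beta ring, 132 ± 2.25 for the ATPases, 91.9 ± 3.08 for the other base genes and 109 ± 1.28 for the lid, which includes rpn-6.2. The means of the core rings thus stood above those of the regulatory particle, but single genes did not all keep that order. In WT rpt-1 (164.6, rank 7) and rpn-3 (161.3, rank 8) were above pbs-4 (120.9, rank 21) and pas-4 (113.6, rank 23).

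**Figure D4:**
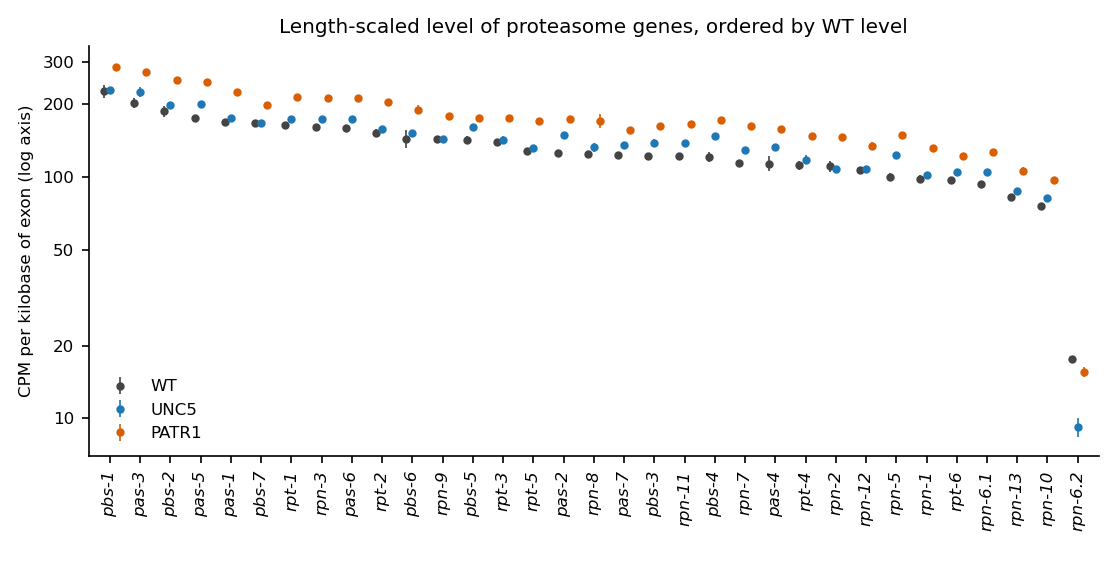
Mean CPM per kilobase of exon of each proteasome gene on a log axis, ordered by the WT level; points are means of 3 libraries and lines are SD. The PATR1 points lie above WT for all genes but rpn-6.2, and the order runs from pbs-1 at 226.5 in WT down to rpn-10 at 76.2, with rpn-6.2 far below at 17.7.

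Genes that work with the proteasome moved in the same direction in PATR1. Of 11 genes for proteasome regulators and ubiquitin shuttles all rose in PATR1 relative to WT (median 0.50) and relative to UNC5 (median 0.44). Among them were the proteasome-bound deubiquitinase gene usp-14 (0.60 ± 0.032, adjusted p = 2e-17, over WT), the shuttle gene rad-23 (0.50 ± 0.030, adjusted p = 2.8e-16) and ddi-1 (0.58 ± 0.037, adjusted p = 1.4e-15), whose protein in worms is the protease that cuts SKN-1A. In UNC5 relative to WT 5 of the 11 rose and 2 fell with TMM factors, and 2 rose and 3 fell with RLE factors. The counts of this list and of the lists below stand beside the shares of all genes tested. In UNC5 relative to WT 49.8% of all genes rose and 27% fell with TMM factors, and 40.4% and 32.7% with RLE factors. In PATR1 38.7% rose and 44.9% fell relative to WT, and 37.8% and 40.9% relative to UNC5. No test was made of the lists against these shares.

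Of 7 genes for the processing of SKN-1A and the control of SKN-1, ddi-1 among them again, all rose in PATR1 relative to WT (median 0.27), and 5 rose relative to UNC5 (median 0.23) with 2 not passing. The transcription factor gene skn-1 was at 180, 179 and 177 CPM in WT, 207, 206.5 and 209 in UNC5, and 215, 217 and 214 in PATR1. It rose by 0.27 ± 0.029 in PATR1 relative to WT (adjusted p = 5.2e-10). The gene wdr-23, whose protein targets SKN-1 for degradation in worms, rose by 0.69 ± 0.033 in PATR1 (adjusted p = 1e-18) and by 0.42 ± 0.033 in UNC5 (adjusted p = 4.7e-13) relative to WT. In UNC5 5 of the 7 rose and 1 fell with TMM factors, and 4 rose and 2 fell with RLE factors.

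The 3 stress genes often read as output of SKN-1 did not move as a block. The glutathione transferase gene gst-4 was at 7.97, 7.33 and 7.38 CPM in WT, 10.4, 11.1 and 11.7 in UNC5, and 23.9, 23.4 and 25.4 in PATR1, a rise of 1.68 ± 0.057 in PATR1 over WT (adjusted p = 1.1e-22). The glutathione synthesis gene gcs-1 rose by 0.63 ± 0.032 in PATR1 (adjusted p = 3.7e-18). The transferase gene gst-10 fell there by 0.41 ± 0.049 (adjusted p = 4.9e-09), and rose by 0.38 ± 0.047 in UNC5 relative to WT (adjusted p = 1.1e-08). All 3 rose in UNC5 relative to WT under every alternative fit.

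Of 14 genes for the segregase CDC-48, which pulls ubiquitin-tagged proteins out of complexes ahead of the proteasome, and its cofactors, 12 rose and 2 fell in PATR1 relative to WT (median 0.42), and all 14 rose relative to UNC5 (median 0.41). The cofactor gene ubxn-5 was at 9.96, 9.70 and 9.42 CPM in WT, 3.29, 2.9 and 2.76 in UNC5, and 7.51, 7.32 and 6.61 in PATR1. Like rpn-6.2 it was lowest in UNC5, with a fall of 1.71 ± 0.082 relative to WT (adjusted p = 1.2e-18). Of the 14 genes 6 rose and 4 fell in UNC5 with TMM factors, and 4 rose and 6 fell with RLE factors.

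A list of ubiquitin genes and of E1 and E2 enzymes was more mixed. The enzymes include ones that load ubiquitin-like proteins instead of ubiquitin: uba-2 and ubc-9 for SUMO, ubc-12 for NEDD8 and uba-5 for UFM1. Of 30, 21 rose and 3 fell in PATR1 relative to WT (median 0.37), 17 rose and 7 fell relative to UNC5 (median 0.14), and 19 rose and 3 fell in UNC5 relative to WT (median 0.30; with RLE factors 17 and 5). The highest value of the list in PATR1 relative to WT was that of the SUMO E1 gene uba-2, at 0.87 ± 0.032 (adjusted p = 9.4e-22). All 6 genes of the COP9 signalosome, which is built like the lid, rose in PATR1 relative to WT (median 0.53) and to UNC5 (median 0.30); in UNC5 relative to WT all 6 rose with TMM factors and 4 with RLE factors.

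The rise in PATR1 was not confined to protein degradation. All 8 genes of the CCT chaperonin, a folding machine for actin and tubulin, rose relative to WT (median 0.43) and to UNC5 (median 0.33). Of 81 cytosolic ribosomal protein genes 79 rose and 2 fell relative to WT (median 0.34), and 60 rose, 2 fell and 19 did not pass relative to UNC5 (median 0.21). In UNC5 relative to WT the CCT median was 0.10 (7 of 8 rose with TMM factors, none with RLE factors, where 1 fell), and the ribosomal median 0.14 (48 rose and 5 fell; with RLE factors 26 and 12). The medians of proteasome, CCT and ribosomal genes in PATR1 relative to WT thus lay between 0.34 and 0.43, and no test was made of the differences between these lists.

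**Figure D5:**
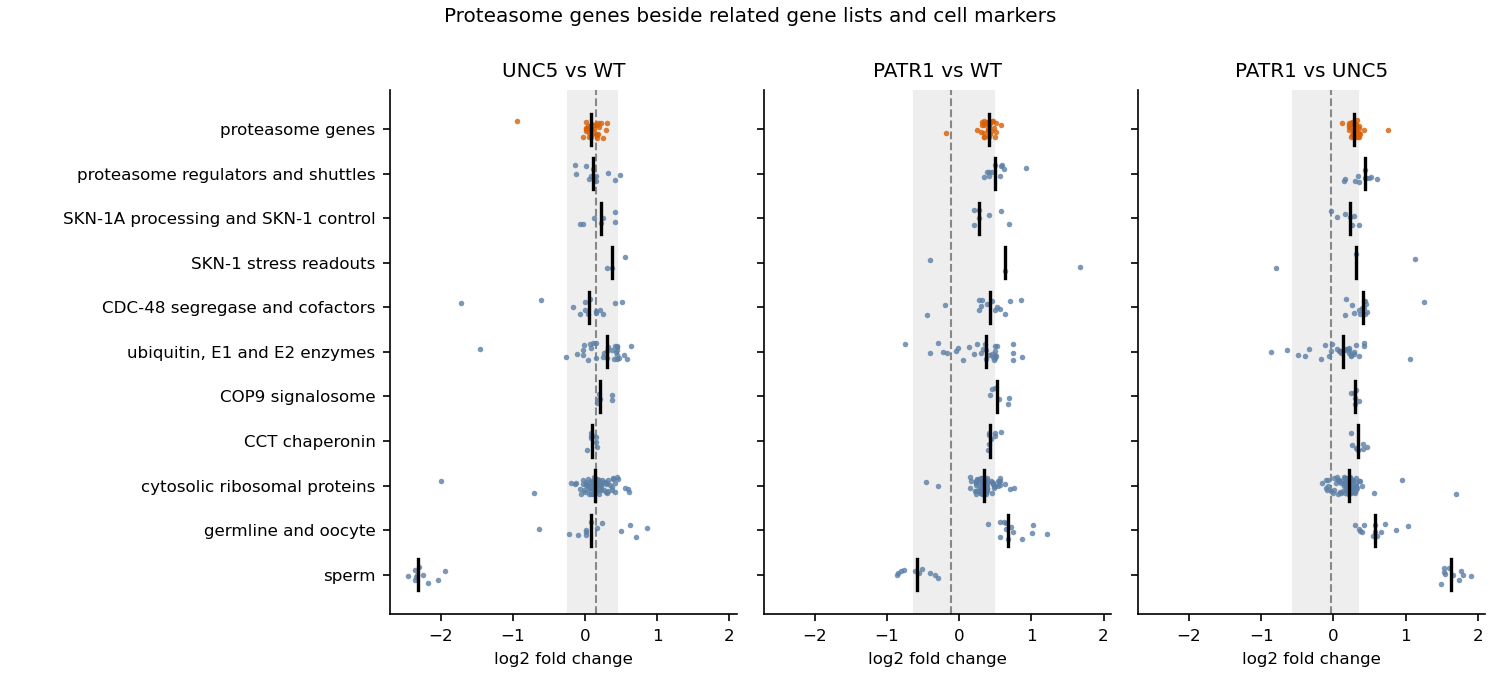
Log2 fold change of each gene (points) and the list median (black bars) for the proteasome genes, 8 related lists, and germline and sperm markers in the 3 comparisons; dashed lines are the medians and grey bands the interquartile ranges of all 17512 genes. Proteasome, CCT and ribosomal medians lie at 0.34 to 0.43 in PATR1 relative to WT, and at 0.09 to 0.14 in UNC5 relative to WT, on the low side of the all-gene median of 0.16; with RLE factors these 3 UNC5 medians are -0.01 to 0.04.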

How the data were processed

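Per the labels, the libraries were made from poly(A) RNA of whole worms. The deposited values are raw read counts per gene without normalization, which the authors made, per the submitters' processing notes, with FastQC 0.11.9, cutadapt 3.5, STAR 2.7.11b and WBcel235; the design text names WS288, and counts went to 46926 genes. The reverse-strand counts were used, since their totals were 41.9 to 57.1 times those of the forward strand. Gene positions came from the WBcel235 annotation, which held 46918 of the identifiers.

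Genes were kept with filterByExpr (17512), scaled with TMM factors (0.954 to 1.04) and fitted over all 9 libraries with the robust quasi-likelihood test of edgeR 4.0.16 in R 4.3.3, 3 libraries per group, with Benjamini-Hochberg adjustment; the common biological coefficient of variation was 3.14%. Levels per length are CPM per kilobase of merged exon. The pipeline was tested on simulated data. Between libraries of the same group the median chi-square was 1.43 to 2.21 times that of counting error, so none was counted as a repeat.

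The members and the gene lists were chosen with earlier results of these data known. The named genes were the members, unc-5, and up to 4 genes of each list per comparison with the smallest adjusted p; the fullest statistics went to the 4 members farthest from the median member in each comparison. The alternatives were RLE factors, unscaled library sizes, all genes with a count, a filter at 5 CPM in 3 libraries, unstranded counts, a replicate block, only the 6 libraries compared, leaving out each library, the Wald test of DESeq2 1.42.0, and a 2-fold threshold. Tables were made with pandas 2.3.3 and numpy 2.4.6, and plots with matplotlib 3.10.9, in Python 3.11.15. No sequences were used here.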

Additional observations from a re-analysis of the deposited data

Results flagged for a closer look

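Reads on the strand opposite to the gene, which entered only the alternative fit with unstranded counts, were more frequent at the proteasome genes in UNC5 than in WT. They made up 0.434%, 0.365% and 0.394% of the reads at the 33 genes in the WT libraries, 0.941% ± 0.0774 (SD, n = 3) in UNC5 (0.863% in its lowest library) and 0.415% to 0.522% in PATR1. Over all genes the share was 2.04% to 2.13% in WT, 2.15% to 2.33% in UNC5 and 1.72% to 1.86% in PATR1. In WT 750 to 804 of the 1217 to 1394 such reads per library lay at rpt-4. That gene overlaps nfyc-1 and rpoa-49 on the other strand, and its share was 7.20% in WT, 7.33% in UNC5 and 7.29% in PATR1. Other members also overlap a coding gene on the other strand, such as rpt-2 with fos-1 (0.812% in WT and 3.33% in UNC5). For 31 of 33 genes (93.9%) every UNC5 library was above every WT library in the opposite-strand share, against 42.4% of 17351 genes tested, while in PATR1 it was 7 of 33 (21.2%) against 23.4%. Some of these separations rest on few reads: pas-5 had 1 opposite read per WT library and 2 to 4 per UNC5 library. For pas-2 these were 1 to 2 and 7 to 8. The ATPase gene rpt-5 had the share 0.380% in WT, 4.40% in UNC5 and 1.53% in PATR1, and no annotated gene overlaps it; it was picked after its values were seen. The reverse-strand counts leave these reads out, while the unstranded counts of an alternative fit include them. The share was not tested further, and the reads in no gene, also more frequent in UNC5, were not examined by position.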

How the results depend on the processing

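In PATR1 the counts of proteasome genes that rose and fell kept their values under every alternative fit, except that library sizes alone left 32 of 33 higher than UNC5. In the main fit none passed a 2-fold threshold in any comparison (0 higher and 0 lower). Without that threshold 23 of 33 in UNC5 relative to WT had an unadjusted p below 0.05 by edgeR's test, against 13641 of all 17512 genes. In PATR1 all 33 did, against 14752 of all genes relative to WT and 13964 relative to UNC5. Under other fits rpn-6.2 passed the 2-fold threshold in UNC5 relative to WT: with RLE factors, without the filter, with the 5 CPM filter, with only the 6 libraries, by DESeq2 and without UNC5 replicate 2. The median change in PATR1 relative to WT was 0.35 with RLE factors, 0.28 with library sizes alone, 0.39 without the low-count filter, 0.29 with the 5 CPM filter, 0.36 by DESeq2 and 0.39 to 0.41 with 1 library left out; relative to UNC5 these were 0.34, 0.22, 0.44, 0.24, 0.35 and 0.28 to 0.30. In UNC5 relative to WT the numbers higher and lower, with the median, were 7 and 6 (-0.01) with RLE factors, 13 and 2 (0.04) with library sizes alone, 2 and 16 (-0.07) without the filter, 13 and 2 (0.03) with the 5 CPM filter, 3 and 12 (-0.06) with only the 6 libraries, 6 and 6 (-0.01) by DESeq2, and 16 to 22 and 1 to 2 (0.08 to 0.11) with 1 library left out, where 2 fell only without WT replicate 1; the all-gene median moved with them, and the cause was not tested. Of the gene-by-setting values of UNC5 relative to WT 379 kept sign and call, 103 changed sign, 66 lost and 13 gained the call; of those of PATR1 relative to WT all 561 kept both. In UNC5 rpn-6.1 was at 0.00 (adjusted p = 0.99) without the filter, 0.06 with RLE factors and by DESeq2, and 0.01 with only the 6 libraries. Summed levels were 5668 (WT) and 5656 (UNC5) CPM with RLE factors, 5690 (WT) and 6919 (PATR1) with library sizes alone, and 7290 (PATR1) with unstranded counts. With the replicate number as a block 20 genes rose and 1 fell in UNC5. Same-numbered libraries did not deviate together (r = -0.0488 to 0.0459 across genes). This shows no shared shift, but cannot exclude that same-numbered libraries were prepared together, which the labels do not say. The gene with the fewest reads was rpn-6.2, at 533 to 1701 per library; how far depth limits each gene was not compared.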
